A study of Mus musculus with 12 samples.

Results

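The platelet-derived growth factor (PDGF) family is described here in the abdominal aorta of mice that lack CCN2 in smooth muscle cells (SMC). The members were chosen by gene symbol and are the 4 ligand genes Pdgfa, Pdgfb, Pdgfc and Pdgfd and the receptor genes Pdgfra and Pdgfrb, 6 of the 55092 features measured, and all 6 were among the 14676 features that passed the filter on low values. RNA-Seq of poly(A) RNA was made from 12 male mice, 1 library per mouse, in 4 groups of 3. CCN2fl/fl mice carry the floxed allele without Cre and were infused for 7 days by mini-osmotic pump with saline (CFS) or with Ang II at 500 ng/kg/min (CFA). CCN2SMCΔ mice carry the same floxed allele and the Myh11-Cre-ERT2 transgene, which cuts the allele in Myh11-expressing cells once tamoxifen is given, and received saline (CSS) or Ang II (CSA). Mice of both genotypes received tamoxifen at 8 weeks of age, and the other cells of the wall keep an intact Ccn2 gene. Each mouse is named by its group and its number. Labels give each library as a separate mouse, and no litter or sequencing day.

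PDGF ligands act as dimers that bring together pairs of receptor tyrosine kinases at the cell surface. The PDGF-A and PDGF-C chains bind mainly PDGFRα, PDGF-D binds mainly PDGFRβ, and PDGF-B binds both. PDGF-A and PDGF-B are cut to their active form inside the cell, whereas PDGF-C and PDGF-D leave it as latent proteins that proteases activate outside. In arteries, endothelial PDGF-B recruits mural cells that carry PDGFRβ, PDGFRα is a common marker of fibroblasts, and PDGF is a classic mitogen and migration signal for SMC.

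Levels are FPKM, the fragments of a gene relative to its length and to the size of the library, so levels of different genes can be set side by side roughly. The length covers all annotated exons of a gene, which can be longer than the transcripts made. Depth, recovered from the deposited values, was 14555508 to 23102755 fragments per library, and the members rested on 226 to 9464 fragments in every library. The library CSA 03 stood apart. It had 18883 features above 0, against 21192 to 24761 in the other libraries, 272 features at 1 fragment against 1128 to 2435, and lay 1.20 and 1.21 from the other CSA libraries (root mean square difference of log2 values), which lay 0.505 from each other. Ccn2, the targeted gene, was at 480, 710 and 1108 FPKM in CFS, 436, 587 and 640 in CSS, 564, 1013 and 1105 in CFA and 255, 331 and 399 in CSA. It fell in CSA against CFA by 1.41 on the log2 scale (adjusted p = 0.00622), and CSS overlapped CFS with a log2 difference of -0.40 (adjusted p = 1.0). Smooth muscle markers such as Myh11 and Acta2 summed to 7803 to 10313 FPKM in the saline groups, so the tissue carried the markers of the aortic media.

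Differences are log2 fold changes of FPKM + 0.1 with their standard errors (SE), fitted with limma over all 12 libraries, with p-values adjusted over all tested genes by the Benjamini-Hochberg method. A gene is said to rise or fall at an adjusted p under 0.05, and called when its absolute log2 fold change is also over 1.5. The comparisons share groups, so that their values for a gene are not independent of each other: CFA stands in the comparison with CFS and in that with CSA, and CSA stands in those with CFA and CSS.

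Pdgfd, which encodes the latent PDGF-D ligand of PDGFRβ, was the ligand with the highest mean in CFS, CSS and CFA, and its level in the CSA aortas was below that of the 9 other aortas. It was at 46.6, 38.8 and 37.8 FPKM in CFS, at 38.5, 38.8 and 36.2 in CSS, at 52.7, 39.4 and 37.6 in CFA, and at 7.15, 9.31 and 11.4 in CSA. The lowest library of the other 3 groups was at 36.2 FPKM and the highest CSA library at 11.4, so CSA did not overlap any of them. Group means were 41.1 ± 4.81 FPKM (SD, n = 3) in CFS, 37.8 ± 1.45 in CSS, 43.2 ± 8.28 in CFA and 9.29 ± 2.13 in CSA. Pdgfd fell 4.64-fold in CSA against CFA, by 2.21 on the log2 scale (SE 0.184, adjusted p = 6.89e-06), and 4.11-fold in CSA against CSS, by 2.04 (SE 0.184, adjusted p = 7.4e-06). The absolute change between CSA and CFA was at percentile 89.0 of all tested genes. The deletion under saline and Ang II in floxed mice gave differences that did not pass the test: the log2 value was -0.11 (95% interval -0.52 to 0.29) for CSS against CFS and 0.06 (-0.34 to 0.47) for CFA against CFS. The gene (ENSMUSG00000032006) lies on chromosome 9 from 6168584 to 6378850, plus strand, of GRCm38, and shares no exonic base with another annotated gene.

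Pdgfc, which encodes the latent PDGF-C ligand of PDGFRα, was also lowest in CSA, from a lower starting level. Its values were 8.46, 7.47 and 6.51 FPKM in CFS, 13.7, 10.1 and 9.01 in CSS, 8.96, 9.59 and 8.14 in CFA, and 4.33, 5.42 and 6.05 in CSA. The 3 CSA libraries lay below the 9 others, and the 3 CSS libraries lay above the 3 CFS libraries. Pdgfc fell by 0.76 in CSA against CFA (SE 0.182, adjusted p = 0.0065) and by 1.03 in CSA against CSS (SE 0.182, adjusted p = 8e-04), that is 1.69-fold and 2.04-fold. In saline the difference went the other way without passing the test: CSS against CFS was 0.53 (95% interval 0.13 to 0.93, adjusted p = 0.618). CFA against CFS was 0.25 (-0.15 to 0.65). Pdgfc (ENSMUSG00000028019) lies on chromosome 3 from 81036416 to 81214040, plus strand, and 2.9% of its exonic bases are shared with the antisense gene Gm16000.

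The stretches before the start sites of these latent ligands are shown because Pdgfd and Pdgfc were the members that fell in CSA against both CFA and CSS. They are the 250 bases before each start in RefSeq (GRCm38.p6), at chr9:6168236-6168485 for Pdgfd and chr3:81036166-81036415 for Pdgfc, both on the plus strand, printed 5′ to 3′, with motif matches in capitals.
Pdgfd: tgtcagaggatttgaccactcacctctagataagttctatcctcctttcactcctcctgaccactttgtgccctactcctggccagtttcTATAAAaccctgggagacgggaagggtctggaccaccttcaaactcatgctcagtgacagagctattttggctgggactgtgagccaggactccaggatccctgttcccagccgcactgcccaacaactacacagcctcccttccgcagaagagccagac
Pdgfc: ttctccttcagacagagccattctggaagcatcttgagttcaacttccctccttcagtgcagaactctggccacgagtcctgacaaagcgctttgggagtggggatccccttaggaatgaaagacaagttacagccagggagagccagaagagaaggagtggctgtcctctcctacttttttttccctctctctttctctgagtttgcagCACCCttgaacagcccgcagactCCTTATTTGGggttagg
The motifs searched, on both strands, were TATAAA (the element that TBP binds), TGANTCA (bound by AP-1), CACCC (bound by KLF factors), GCGNGGGCG (bound by EGR1) and the CArG box (bound by serum response factor). The Pdgfd window held 1 match, TATAAA, whose first base is 160 bases upstream of the RefSeq start, and 12.4% of the 32851 promoter windows hold that motif. The position given above for the Pdgfd gene starts further downstream, at 6168584, so the distance from that start is larger. The Pdgfc window held a CACCC at 40 bases upstream, a motif in 52.0% of all windows, and a CArG box at 17 bases upstream, a motif in 1.47% of them. TGANTCA (6.75% of all windows) and GCGNGGGCG (4.7%) had 0 matches in either, and no match overlapped another. The G and C content was 53.6% for Pdgfd and 50.8% for Pdgfc, beside a median of 52.4% over all windows. A match of letters is a description and does not show that a factor binds there.

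Pdgfa, which encodes the PDGF-A ligand of PDGFRα, was the ligand with the highest mean in CSA, at 18.5 ± 0.653 FPKM (SD, n = 3). It was at 19.3, 21.1 and 19.9 FPKM in CFS, 29.0, 27.5 and 33.2 in CSS, 26.3, 25.0 and 17.8 in CFA, and 19.3, 18.1 and 18.2 in CSA. All CSS libraries lay above all CFS and all CSA libraries, and CFA was split, with CFA 71 and CFA 72 above CSA and CFA 74 below it. Pdgfa fell by 0.68 in CSA against CSS (SE 0.148, adjusted p = 0.00295), or 1.61-fold. CSA against CFA was -0.29 (SE 0.148, adjusted p = 0.14), and CSS against CFS was 0.57 (SE 0.148, adjusted p = 0.379). The CSA against CFA value passed the test in 2 of 22 alternative fits, which ranged from -0.47 to -0.14. It did so without CFA 74, at -0.47 (adjusted p = 0.0138), and with array weights, which let noisier libraries count less, at -0.39 (adjusted p = 0.0149). Pdgfa (ENSMUSG00000025856) lies on chromosome 5 from 138976014 to 138997370, minus strand, and 26.1% of its exonic bases are shared with the antisense gene 6330403L08Rik. Whether the counting used strand is not given in the sources used here, so fragments from that overlap cannot be assigned to 1 of the genes.

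Pdgfb, which encodes PDGF-B, was the ligand with the lowest mean in CFS and in CSS, and reached its highest values in 2 of the 3 CSA libraries. Its values were 6.38, 2.90 and 7.37 FPKM in CFS, 10.5, 7.87 and 10.3 in CSS, 10.6, 10.7 and 7.89 in CFA, and 22.6, 18.3 and 7.75 in CSA. CSA 01 and CSA 02 lay above all other libraries, while CSA 03 lay below all CSS and CFA libraries. The mean was 16.2 ± 7.66 FPKM (SD, n = 3) in CSA and 9.71 ± 1.57 in CFA, and the log2 difference of 0.61 (SE 0.407, 95% interval -0.29 to 1.51) did not pass the test (adjusted p = 0.256). It passed in 2 of 22 alternative fits, without CSA 03, at 1.07 (adjusted p = 0.0263), and with array weights, at 0.94 (adjusted p = 0.00999). Without CSA 01 it was 0.31 (adjusted p = 0.588). CSA against CSS was 0.63 (adjusted p = 0.227) with all libraries and also passed in 2 of 22 alternative fits. These gave 1.09 (adjusted p = 0.0216) without CSA 03 and 1.02 (adjusted p = 0.00406) with array weights, and the lowest of the 22 was 0.33. All CSS and all CFA libraries lay above all CFS libraries, with log2 differences of 0.87 (95% interval -0.03 to 1.76, adjusted p = 0.805) and 0.89 (-0.01 to 1.78, adjusted p = 0.542). Pdgfb (ENSMUSG00000000489) lies on chromosome 15 from 79995874 to 80014977, minus strand, with no exonic base shared.

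With the values as deposited and all 12 libraries in the fit, neither receptor rose or fell in any of the 5 comparisons. Pdgfra, the gene of PDGFRα, was at 22.6, 29.6 and 19.9 FPKM in CFS, 19.8, 18.7 and 16.7 in CSS, 19.8, 15.8 and 24.6 in CFA, and 24.0, 20.1 and 35.3 in CSA, where the highest value was that of CSA 03. CSA overlapped CFA, with a log2 difference of 0.38 (95% interval -0.13 to 0.89, adjusted p = 0.219), and lay above CSS without overlap, at 0.49 (-0.03 to 0.997, adjusted p = 0.111). The latter passed the test in 2 of 22 alternative fits, without CSA 02, at 0.66 (adjusted p = 0.0481), and with FPKM rescaled to the recovered fragment totals, at 0.67 (adjusted p = 0.0321). The lowest of the 22 was 0.24. CSS lay below CFS without overlap, at -0.36 (adjusted p = 0.942). Pdgfra (ENSMUSG00000029231) lies on chromosome 5 from 75152292 to 75198215, plus strand, and 6.5% of its exonic bases are shared with Gm42802, Gm42803 and Mir7025.

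Pdgfrb, the gene of PDGFRβ, was the member with the highest mean in every group, at 56.2 ± 13.5 FPKM (SD, n = 3) in CFS, 66.7 ± 7.54 in CSS, 66.6 ± 15.5 in CFA and 51.0 ± 17.6 in CSA. Its values were 52.5, 71.1 and 45.0 FPKM in CFS, 60.3, 64.7 and 75.0 in CSS, 79.3, 49.4 and 71.1 in CFA, and 67.99, 52.1 and 32.8 in CSA. All 4 groups overlapped each other, and CSA 03 gave the lowest of the 12 values. The log2 difference was -0.42 (95% interval -1.03 to 0.19, adjusted p = 0.252) for CSA against CFA and -0.44 (-1.05 to 0.17, adjusted p = 0.213) for CSA against CSS. Both intervals include 0. Pdgfrb (ENSMUSG00000024620) lies on chromosome 18 from 61045150 to 61085061, plus strand, with no exonic base shared.

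**Figure D1:**
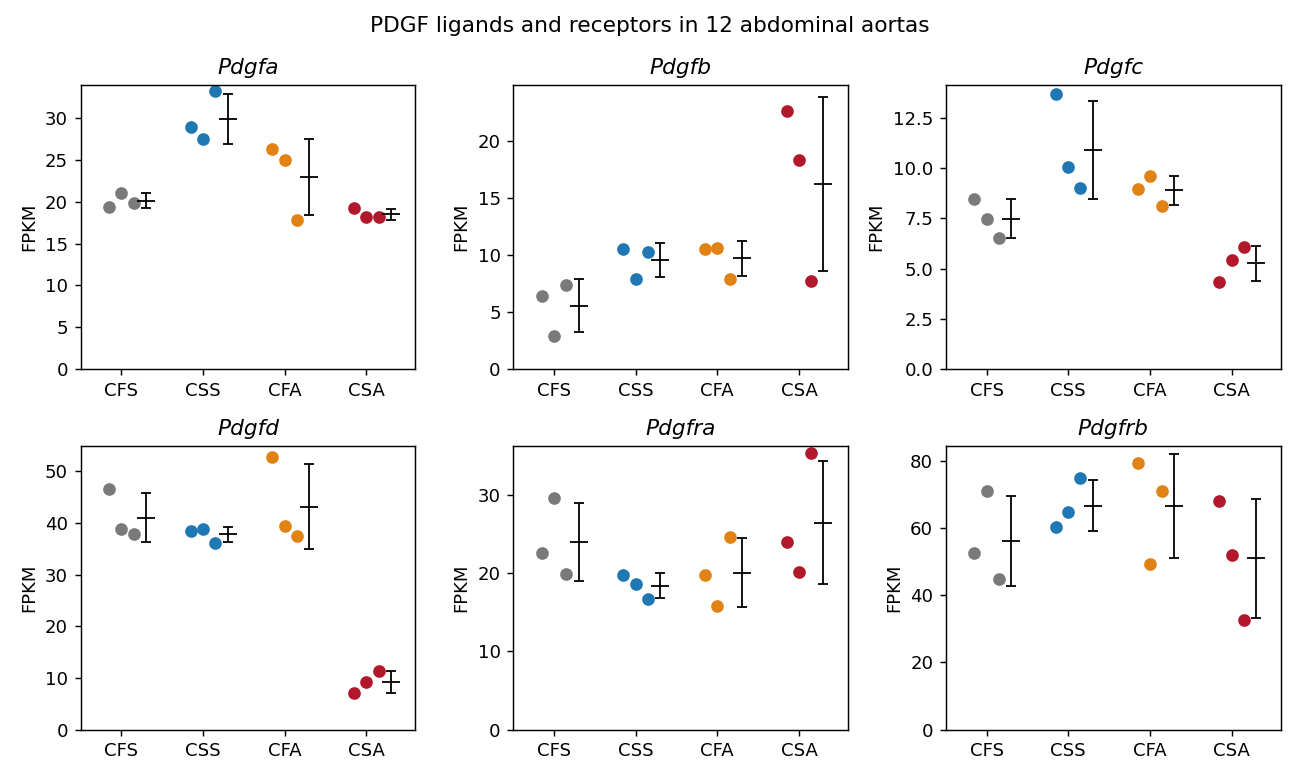
FPKM of the 6 genes in the 12 abdominal aortas, with 1 panel per gene and 1 point per mouse, and with the horizontal mark and bars giving the mean and SD of the 3 mice of a group. Pdgfd in CSA lies at 7.15 to 11.4 FPKM below all other groups, Pdgfc is also lowest in CSA, and Pdgfb in CSA spreads from 7.75 to 22.6.

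Ranked by mean FPKM, the order in CFS was Pdgfrb, Pdgfd, Pdgfra, Pdgfa, Pdgfc and Pdgfb. In CSA it was Pdgfrb, Pdgfra, Pdgfa, Pdgfb, Pdgfd and Pdgfc, so that Pdgfd moved from the second place to the fifth. Neighbours in the CFS order overlapped in the ranges of their 3 libraries for Pdgfrb and Pdgfd (45.0 to 71.1 and 37.8 to 46.6 FPKM), for Pdgfra and Pdgfa (19.9 to 29.6 and 19.3 to 21.1) and for Pdgfc and Pdgfb (6.51 to 8.46 and 2.90 to 7.37). Pdgfd and Pdgfra, and Pdgfa and Pdgfc, did not overlap there. In CSA the ranges overlapped for Pdgfrb and Pdgfra (32.8 to 67.99 and 20.1 to 35.3 FPKM), for Pdgfa and Pdgfb, and for Pdgfb and Pdgfd, while Pdgfra lay above Pdgfa and Pdgfd above Pdgfc in every library. In CSS and CFA the first 4 places were held by Pdgfrb, Pdgfd, Pdgfa and Pdgfra, and the last by Pdgfb in CSS and by Pdgfc in CFA. The spread within a group was widest for Pdgfb, whose coefficient of variation was 47.2% in CSA and 42.3% in CFS, and narrowest for Pdgfa in CSA, at 3.53%.

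The first comparison asks what the loss of SMC CCN2 changes under Ang II. In CSA against CFA, 2 of the 6 members passed the adjusted p, Pdgfc and Pdgfd, both lower, beside 40.7% of all tested genes, and 1, Pdgfd, was called with the fold limit, beside 17.2% of all tested genes. The same 2 members had groups that did not overlap, beside 48.5% of all tested genes. The absolute log2 fold change had a median of 0.52 over the members and of 0.54 over all tested genes. The other 5 members lay between -0.76 and 0.61 beside the -2.21 of Pdgfd. Without CSA 03, 3 members passed, the same 2 and Pdgfb, which was higher, beside 47.0% of the 14066 genes tested in that fit.

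The genotype difference under saline gave no call. In CSS against CFS, 0 of 6 members passed the adjusted p in limma, beside 0.0204% of all tested genes, and 0 were called with the fold limit, beside 0.0136%, while 2 (Pdgfa and Pdgfc) had an unadjusted p under 0.05, both higher in CSS, beside 6.30% of all tested genes. Groups did not overlap for 4 members, Pdgfa, Pdgfb and Pdgfc higher and Pdgfra lower in CSS, beside 20.4% of all tested genes. The members changed by a median of 0.45 in absolute log2 value, and all tested genes by 0.16. Pdgfa passed the test in 1 of 22 alternative fits, with array weights, at 0.59 (adjusted p = 0.0462).

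Ang II in mice with intact Ccn2 also gave no call. In CFA against CFS, 0 of 6 members passed the adjusted p in limma, beside 0.0341% of all tested genes, 0 were called with the fold limit, beside 0.0273%, and 0 had an unadjusted p under 0.05, beside 9.42%. Only Pdgfb had groups that did not overlap, higher in CFA, beside 20.2% of all tested genes. The members changed by a median of 0.25 in absolute log2 value, and all tested genes by 0.18.

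In CCN2SMCΔ mice, 3 ligands were lower after Ang II than after saline. In CSA against CSS, 3 of 6 members, Pdgfa, Pdgfc and Pdgfd, passed the adjusted p, beside 46.2% of all tested genes, and 1, Pdgfd, was called with the fold limit, beside 20.3%. Groups did not overlap for these 3, lower in CSA, and for Pdgfra, higher in CSA, beside 55.4% of all tested genes. The members changed by a median of 0.66 in absolute log2 value, and all tested genes by 0.60.

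The interaction tests whether the genotype difference under Ang II departs from that under saline. It passed the adjusted p for 3 of 6 members, beside 26.4% of all tested genes, and with the fold limit for 1, Pdgfd, beside 15.2%. The interaction was -2.10 on the log2 scale for Pdgfd (SE 0.26, adjusted p = 2.7e-04), -1.28 for Pdgfc (SE 0.257, adjusted p = 0.00407) and -0.86 for Pdgfa (SE 0.21, adjusted p = 0.0115). For Pdgfa and Pdgfc the estimated genotype differences had opposite signs, at 0.57 and 0.53 under saline and -0.29 and -0.76 under Ang II. Of these only the -0.76 of Pdgfc passed the test. The interaction thus shows that the differences are unequal and does not show a reversal. Pdgfra was at 0.74 (95% interval 0.02 to 1.47, adjusted p = 0.123), Pdgfrb at -0.69 (adjusted p = 0.229) and Pdgfb at -0.25 (-1.52 to 1.02, adjusted p = 0.786).

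**Figure D2:**
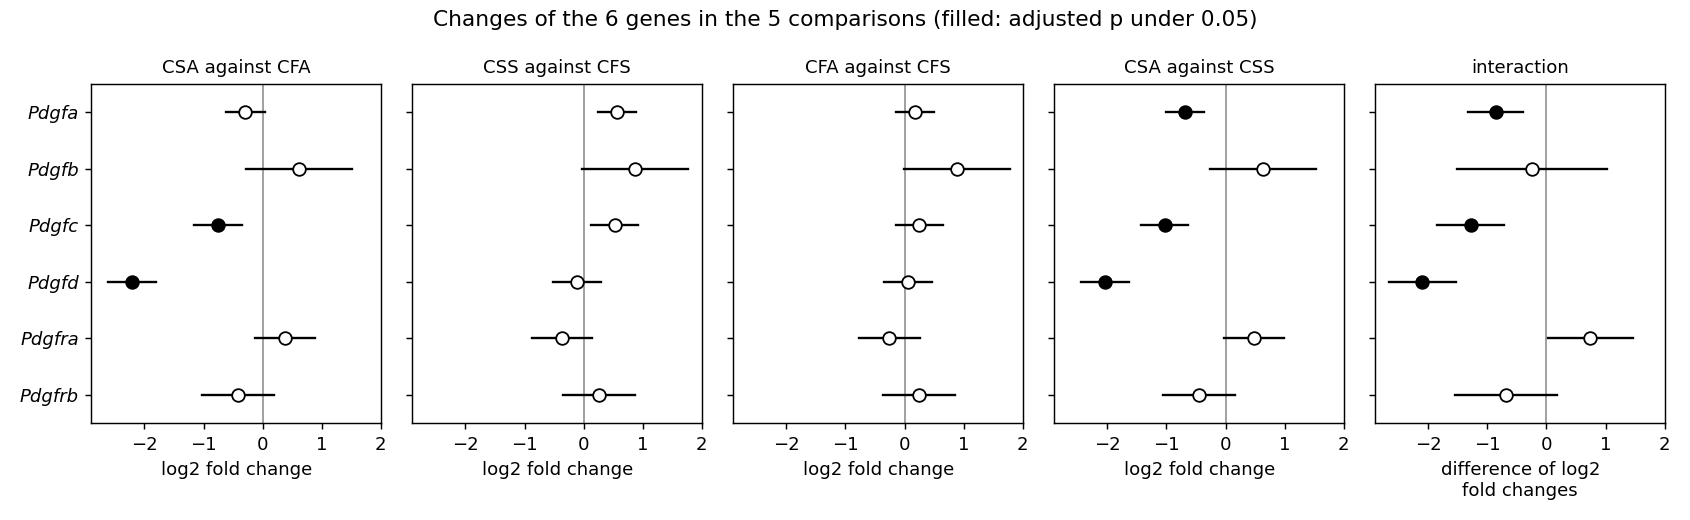
Log2 fold change of the 6 genes (x axis, points) with 95% intervals (lines) in the 5 comparisons, where the last panel gives the genotype difference under Ang II minus that under saline. Filled points have an adjusted p under 0.05: Pdgfc and Pdgfd in CSA against CFA, and Pdgfa, Pdgfc and Pdgfd in CSA against CSS and in the interaction.

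The mix of ligands differed in CSA. Summed over the 4 ligands, the level was 80.8, 70.3 and 71.6 FPKM in CFS, 91.8, 84.3 and 88.7 in CSS, 98.5, 84.6 and 71.4 in CFA, and 53.4, 51.2 and 43.4 in CSA. CSA lay below all other groups, 1.72-fold below CFA in the ratio of means, and CSS lay above CFS by 1.19-fold. Pdgfd made up 52.8% to 57.7% of the sum in CFS, 40.8% to 46.1% in CSS, 46.5% to 53.5% in CFA and 13.4% to 26.3% in CSA. Pdgfb made up 4.13% to 10.3% in CFS, 9.34% to 11.6% in CSS, 10.7% to 12.6% in CFA and 17.9% to 42.4% in CSA, the lowest of the CSA values being that of CSA 03. The share of Pdgfa was 27.1% ± 2.30 (SD, n = 3) in CFA and 37.8% ± 3.53 in CSA. Its mean level was 23.0 FPKM in CFA and 18.5 in CSA, so the larger share came with a smaller sum. Pdgfc kept a share of 10.1% to 12.3% in the 4 group means, and its share in CSA (10.9% ± 2.94) overlapped that in CFA (10.6% ± 1.32).

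**Figure D3:**
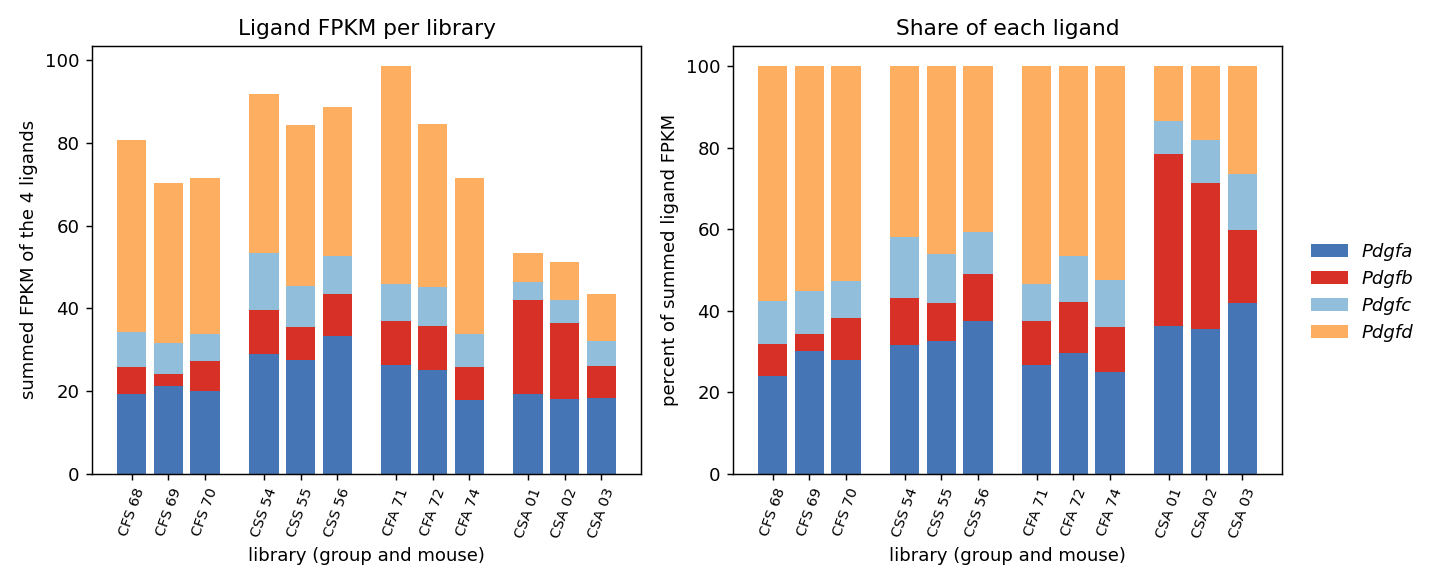
Summed FPKM of Pdgfa, Pdgfb, Pdgfc and Pdgfd in each library (left, stacked bars) and the percent of that sum held by each ligand (right). The CSA bars reach 43.4 to 53.4 FPKM against 70.3 to 98.5 in the other groups, and the share of Pdgfd in them is 13.4% to 26.3%.

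The summed receptor levels of the groups overlapped. They were 80.2 ± 18.5 FPKM (SD, n = 3) in CFS, 85.1 ± 5.99 in CSS, 86.7 ± 18.7 in CFA and 77.4 ± 12.8 in CSA, and CSA overlapped CFA (exact two-sided permutation test, p = 0.5). The ratio of summed ligands to summed receptors was 0.64 ± 0.0642 in CSA and 1.01 ± 0.276 in CFA, and CSA lay below CFA and CSS without overlap. The ratio of Pdgfra to Pdgfrb was 0.416 to 0.442 in CFS, 0.223 to 0.329 in CSS, 0.25 to 0.347 in CFA, and 0.353, 0.386 and 1.08 in CSA. Both CSS and CFA lay below CFS, and CSA lay above CSS and CFA. The CSA against CFA difference in the log2 ratio was 0.80, and 0.29 without CSA 03, whose ratio was the highest of the 12. The ratio of Pdgfb to Pdgfd was 0.0748 to 0.195 in CFS, 0.203 to 0.284 in CSS, 0.2 to 0.271 in CFA and 0.678 to 3.16 in CSA. The ratio of Pdgfd to its receptor gene Pdgfrb was 0.663 ± 0.134 in CFA and 0.211 ± 0.125 in CSA. Such values were tested by two-sided exact permutation over 3 and 3 libraries, where 0.1 is the smallest p possible. Of 52 tests over sums, shares and ratios, 32 had that p, and the lowest value after Benjamini-Hochberg adjustment was 0.163, so none can pass a threshold of 0.05.

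**Figure D4:**
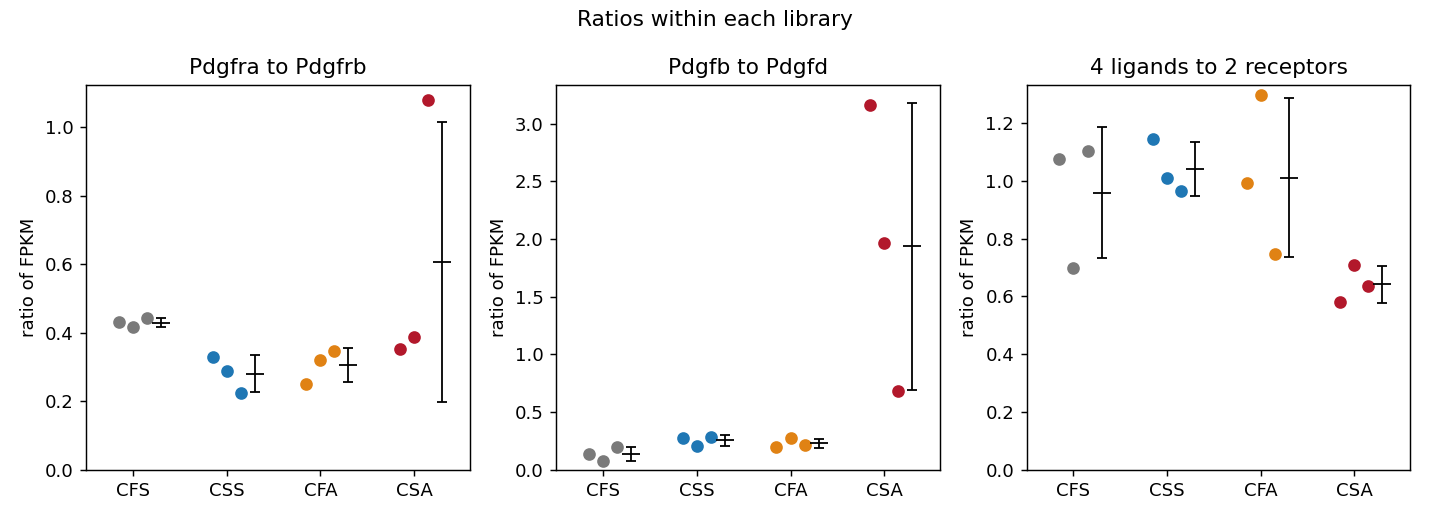
Ratios of FPKM within each library, 1 point per mouse, with mean and SD of the 3 mice: Pdgfra to Pdgfrb, Pdgfb to Pdgfd, and the summed ligands to the summed receptors. CSA 03 has the highest ratio of Pdgfra to Pdgfrb (1.08), and the CSA ratios of Pdgfb to Pdgfd reach 0.678 to 3.16, above all other libraries.

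Markers of several cell types differed between CFA and CSA. Smooth muscle markers summed to 5532 to 8461 FPKM in CFA and 818 to 966 in CSA, and 9 of 9 fell. Macrophage markers summed to 330 to 716 FPKM in CFA and 2368 to 2702 in CSA, and 10 of 10 rose, and all 5 T cell markers and 4 of the 4 tested neutrophil markers rose too. Fibroblast markers summed to 4171 to 4587 FPKM in CFA and 6374 to 7494 in CSA (5 rose and 3 fell of 10), pericyte markers to 953 to 1695 and 281 to 307 (4 of 7 fell), and endothelial markers to 284 to 569 and 177 to 225 (1 rose and 3 fell of 9). Adipocyte markers summed to 309 to 885 FPKM in CFA and 93.9 to 300.3 in CSA (3 of 7 fell), and Schwann cell markers to 4.71 to 8.80 and 14.2 to 19.7 (1 of 5 rose). These counts stand beside 40.7% of all tested genes that passed in CSA against CFA, a share that those of the endothelial and adipocyte lists are near. In bulk tissue, fewer cells of a type and less RNA per cell cannot be told apart, and the part of these shifts in the PDGF values was not tested.

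In CSA against CFA the 9 smooth muscle markers fell by 1.88 (Actg2) to 4.28 (Synpo2) on the log2 scale, with a median of 2.86 for the fall, beside 2.21 for Pdgfd and 0.76 for Pdgfc. Most of the smooth muscle sum was Acta2, at a mean of 5421 of 7227 FPKM in CFA. Rgs5 was most of the pericyte sum, at 969 of 1316 FPKM in CFA. The fibroblast sum was mostly Col1a1, Col1a2 and Col3a1, at 1439, 650 and 961 of 4367 FPKM in CFA. In CSA they were at 2823, 1120 and 1630 of 6951 FPKM. These collagen genes rose with Lum and Mfap5, while Clec3b, Dpt and Pi16 of the same list fell. Ratios to these sums therefore follow a few genes of each list. Per 1000 FPKM of summed smooth muscle markers Pdgfd stood at 4.65 to 6.86 FPKM in CFA and at 7.90 to 14.0 in CSA, and Pdgfc at 1.13 to 1.47 and at 4.78 to 7.40. Per 1000 FPKM of fibroblast markers, Pdgfc was at 1.87 to 2.30 in CFA and at 0.577 to 0.867 in CSA. Pdgfrb, a receptor of mural cells, stood at 38.0 to 74.6 FPKM per 1000 FPKM of pericyte markers in CFA and at 117 to 225 in CSA. Pdgfra stood at 3.79 to 5.67 per 1000 FPKM of fibroblast markers in CFA and at 3.16 to 5.06 in CSA, ranges that overlap. It also overlapped in saline, at 6.33 to 7.56 in CFS and 6.72 to 8.30 in CSS. Fibroblast markers summed to 3137 to 3919 FPKM in CFS and 2389 to 2780 in CSS, and pericyte markers to 907 to 1391 and 1859 to 2076. Smooth muscle, endothelial, macrophage and adipocyte sums overlapped there, and 0 of 73 tested markers passed the adjusted p in CSS against CFS.

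Pdgfb is made by endothelium, macrophages and megakaryocytes, and its values were set against the markers of each. In CFS 69, which had the lowest Pdgfb of all libraries (2.90 FPKM), endothelial markers also had their lowest sum, 147 FPKM, against 502 and 508 in the other CFS mice. Its platelet and megakaryocyte markers had the highest sum of the CFS mice, 45.1 FPKM against 24.2 and 26.0, and its macrophage markers lay between theirs, at 272 against 258 and 320. Per 1000 FPKM of endothelial markers, Pdgfb was at 12.6 to 19.7 FPKM in CFS, 18.7 to 24.6 in CSS, 13.9 to 37.5 in CFA and 43.9 to 100 in CSA. Per 1000 FPKM of macrophage markers it was at 14.9 to 28.7 in CFA and 3.27 to 8.50 in CSA. Platelet and megakaryocyte markers summed to 36.4 to 50.4 FPKM in CFA and 24.0 to 55.1 in CSA, and Gp1bb was at 0 in all 12 libraries.

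**Figure D5:**
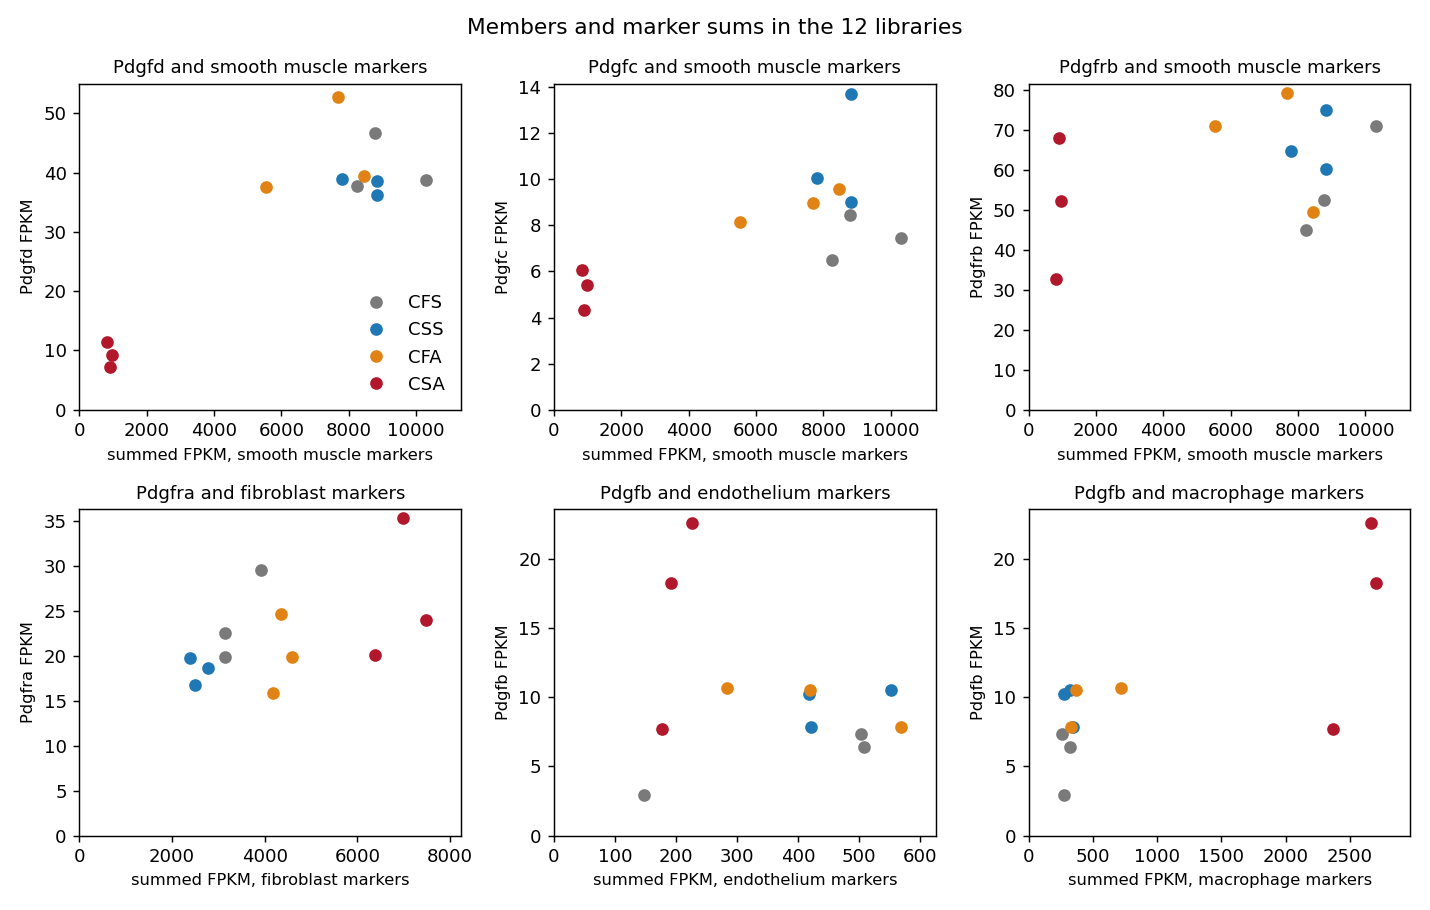
FPKM of a member (y axis) against the summed FPKM of a marker list (x axis), 1 point per library, coloured by group: Pdgfd, Pdgfc and Pdgfrb with smooth muscle markers, Pdgfra with fibroblast markers, and Pdgfb with endothelial and macrophage markers. The CSA libraries sit at 818 to 966 FPKM of smooth muscle markers with Pdgfd at 7.15 to 11.4, while their Pdgfrb of 32.8 to 67.99 overlaps the other groups.

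The genes most like each member were taken by Pearson's r of log2 values over the 12 libraries, among genes with a mean of at least 5 FPKM. They are given as a description without a test, since libraries of a group share their genotype and infusion, and CSA differed from CFA in many genes. For Pdgfd they were Tspan2 (r = 0.99), Cpq (0.99) and AI597479 (0.99). Pdgfc was closest to Mtr (0.94), Rcn2 (0.92) and Id4 (0.92), and Pdgfa to Fn1 (0.93), the gene of fibronectin, Gdf10 (0.91) and Tatdn2 (0.89). For Pdgfb the nearest were Lyl1 (0.96), a hematopoietic and endothelial transcription factor, the adhesion molecule Icam1 (0.95), and the mechanosensitive channel Piezo1 (0.93). Pdgfra lay closest to Hsd17b11 (0.93), the fibroblast matrix gene Dcn (0.90) and Pnrc1 (0.90), and Pdgfrb to Ddx17 (0.93), Pik3r2 (0.92) and Gng8 (0.92). Among the members themselves, the highest r was 0.80 between Pdgfc and Pdgfd and the lowest -0.65 between Pdgfa and Pdgfra.

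The genes that act with the family were followed in 8 lists of 100 genes, of which 97 were tested. In CSA against CFA 26 rose and 24 fell, where 40.7% of all tested genes passed, and without CSA 03 30 rose and 26 fell, where 47.0% passed, with 45 passing in both fits in the same direction. The median log2 fold change was -0.60 for ligand processing and activation, -0.20 for extracellular binders and co-receptors, -8.69e-05 for the receptor-proximal relay, -0.26 for the Ras-ERK and AKT cascade, 0.53 for inhibitors and phosphatases, 0.35 for early-response targets, -0.65 for VEGF relatives and 0.61 for receptor relatives, beside -0.04 over all tested genes. Of the list of proteases for ligand processing and activation 0 rose and 4 of 6 tested fell: Pcsk6, a proprotein convertase, went from 12.1 ± 3.08 FPKM (SD, n = 3) in CFA to 2.36 ± 0.746 in CSA (log2 fold change -2.32, adjusted p = 1.51e-05), Adamts1 from 70.3 ± 23.4 to 29.5 ± 4.80 (-1.21, adjusted p = 0.0101) and Pcsk5 from 12.3 ± 1.70 to 7.96 ± 0.952 (-0.62, adjusted p = 0.00525). Plat fell as well (-0.59, adjusted p = 0.0412), while Furin did not change (0.002). Plau went the other way without passing, from 12.7 ± 5.35 to 22.8 ± 5.77 FPKM (0.93, adjusted p = 0.0557), and it rose in CSA against CSS (1.43, adjusted p = 0.00615). Among extracellular binders and co-receptors, 2 rose and 1 fell of 7. Cspg4, the NG2 proteoglycan of pericytes and SMC that binds PDGF-A, fell from 42.9 ± 9.44 to 6.86 ± 3.04 FPKM (-2.72, adjusted p = 7.12e-05), and Nrp2 (1.24) and Thbs1 (1.20), the gene of thrombospondin 1, rose.

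Inside the cell, 6 of the 26 tested genes of the receptor-proximal relay rose and 4 fell, with Slc9a3r2 at -1.81 (adjusted p = 0.0209) and Slc9a3r1 at 1.42 (adjusted p = 2.29e-04) among them. In the Ras-ERK and AKT cascade 2 of 15 rose and 5 fell, among them Nras at 0.81 (adjusted p = 0.0039) and Mtor at -0.72 (adjusted p = 0.00105). Of the inhibitors and phosphatases 8 of 16 rose and 3 fell. Dusp6, an ERK phosphatase, rose from 9.88 ± 0.912 to 34.5 ± 4.39 FPKM (1.79, adjusted p = 7.08e-06), Socs3, an inhibitor of cytokine signaling, rose by 3.17, and the endothelial phosphatase Ptprb fell by 2.06. Of 16 early-response targets of growth factors 6 rose and 3 fell, with the chemokines Ccl2 (5.54) and Cxcl1 (3.80) and the protease inhibitor Timp1 (3.47) as the largest changes. The 3 that fell were Fosb (-2.27, adjusted p = 0.00271), Srf (-1.57, adjusted p = 0.00626) and Egr1 (-0.94, adjusted p = 0.0466), so the list did not move in 1 direction.

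Among relatives, 0 of the 5 VEGF family ligands rose and 3 fell: Vegfb (-1.42), Pgf (-0.99) and Vegfc (-0.65). Of 6 receptors of related structure 2 rose and 1 fell, namely Flt3 (2.97) and Csf1r (1.91), which act in myeloid cells, and Kit (-1.12). Csf1r went from 30.5 ± 9.63 to 112 ± 10.9 FPKM, and the macrophage markers above rose in the same libraries. In CSS against CFS and in CFA against CFS, 0 of the 97 passed the adjusted p in limma, with 10 and 13 at an unadjusted p under 0.05, beside 6.30% and 9.42% of all tested genes. Without CSA 03, Fosl1 (1.44), Egr3 (1.51) and Pcsk5 (0.68) rose and Pik3r1 (-0.64) fell in CSS against CFS, and Sparc (1.14) rose in CFA against CFS. All were named after their values were seen, beside 0.498% and 0.448% of all genes tested in that fit. CSA 03 is in none of those groups, so leaving it out kept these log2 values and changed the shared estimate of the spread. With all libraries the adjusted p in limma was 0.339 for Fosl1, 0.465 for Egr3, 0.252 for Pcsk5, 0.62 for Pik3r1 and 0.0519 for Sparc. In CSA against CSS 26 of the 97 rose and 32 fell, where 46.2% of all tested genes passed, and Dusp6 (1.86) and Csf1r (2.28) were among those that rose. In the interaction 16 passed as positive and 16 as negative, where 26.4% of all tested genes passed, among them Dusp6 (1.87) and Kit (-1.74).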

How the data were processed

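RNA-Seq libraries of abdominal aortas from 12 male mice, in 4 groups of 3 taken from the labels, were analysed from 1 table with 0 columns unused. The authors deposited FPKM per gene and mouse. Per the submitters' processing notes, HISAT2 2.0.5, StringTie 1.3.3b and featureCounts 1.5.0-p3 were named with mm10. Strandedness and the gene annotation are not given in the sources used here. Positions and exon lengths come from GENCODE M21 on GRCm38, and with these lengths 98.0% to 98.5% of values under 100 fragments came out whole within 0.05 fragment, which gave the depth. The deposited FPKM had already been scaled to each other, as the median log ratio of genes was equal in all 12 libraries. Promoter windows come from RefSeq on GRCm38.p6, where 4 of the 6 members matched with 5 windows.

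In R 4.3.3, limma 3.58.1 (eBayes with trend and robust settings) was fitted to log2(FPKM + 0.1) of the 14676 features that reached 1 FPKM in 3 or more libraries, with 1 coefficient per group and no covariate. The pseudocount understates fold changes of low genes. The fit was first run on simulated data with large known changes and the same spread in all libraries. That run does not cover small changes or an outlying library. The study called genes with DEG-Seq, which needs counts and was not run. Derived values were tested with scipy 1.17.1.

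The members, gene lists and naming rule were chosen with earlier results of these data known. Named are all 6 members, the 3 members of each list with the largest passing change between CSA and CFA whose higher group averaged 1 FPKM or more, in the other comparisons the 3 with the smallest adjusted p, and for each member the 3 genes most like it. A few genes picked by this rule are left unreported. Fosb, Srf, Egr1, Plat, Plau and Furin were added outside it, with their values known. The alternatives covered pseudocounts, filters, scaling, variance models, the call rule, the libraries in the fit, and each mouse left out in turn. Limma p-values set a difference against the spread of mice within groups, pooled over all 4 groups and moderated with that of other genes. An outlying library such as CSA 03 therefore also enters the comparisons without its group.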

Additional observations from a re-analysis of the deposited data

Results flagged for a closer look

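The genotype difference differed between the infusions for 3 of the 6 members, all ligands, by the interaction term of the limma fit, beside 26.4% of all tested genes. For Pdgfd the difference under Ang II minus that under saline was -2.10 on the log2 scale, and all 3 CSA libraries lay below all other libraries. For Pdgfc it was -1.28, and CSS lay above CFS while CSA lay below CFA, in all 3 mice of each group. For Pdgfa it was -0.86, where CSS lay above CFS in all 3 mice and CSA overlapped CFA. Of all tested genes, 20.4% had groups without overlap in CSS against CFS and 48.5% in CSA against CFA. Groups of 3 mice are too small for the test of single outlying libraries.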

How the results depend on the processing

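Of 654 values of members recomputed under alternatives, 641 kept their direction and side of the threshold, 9 newly passed it, 0 lost it and 4 changed sign. With no fold limit the members passing were 2 in CSA against CFA, 3 in CSA against CSS and 3 in the interaction, in place of 1 each. Of all tested genes, 40.7%, 46.2% and 26.4% passed without the limit, and 17.2%, 20.3% and 15.2% with it. The sign changes were of values that did not pass: Pdgfb in the interaction was 0.15 with array weights and -0.56 to 0.21 with single mice left out (0.15 without CFS 69, 0.21 without CSA 03), and Pdgfd in CFA against CFS was -0.089 without CFA 71 and up to 0.16 with other mice left out. The cause was not tested. Pdgfd in CSA against CFA ranged from -2.46 to -2.04 and Pdgfc from -0.86 to -0.60 over 22 alternatives each, and Pdgfa in the interaction from -1.03 to -0.70 over 21. Over all genes, calls ranged from 1095 (mean FPKM of at least 5) to 3194 (no filter) around 2528 in CSA against CFA, from 1272 to 3869 around 2977 in CSA against CSS, from 1078 to 2488 around 2231 in the interaction, from 0 to 35 around 2 in CSS against CFS and from 0 to 147 around 4 in CFA against CFS, the highest of the last 2 with array weights. Median-of-ratios scaling changed no value. No paired analysis was possible because the mouse numbers are not shared between groups.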
